A study of Mus musculus with 6 samples.

Results

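In E14.5 male gonads, the 3 microarrays numbered 1 in their labels were compared with the 3 numbered 2, each pair within 1 genotype, so that all 6 arrays of the study were used. The study had hybridized 200 ng of total RNA per array to one-colour Agilent whole mouse genome arrays, to compare gonads that differ in NANOS2, an RNA-binding protein of male germ cells that suppresses meiosis. The gonads were Nanos2+/- (heterozygous), Nanos2-/- (null), and Nanos2-/-_Tg+, which are null gonads carrying a transgene for 3×FLAG-tagged NANOS2-ΔN10 under the Nanos2 enhancer. That protein lacks the N-terminal residues with which NANOS2 binds a deadenylation complex. All groups had a mixed ICR and N2 background and shared the age, the sex and at least 1 Nanos2 null allele. The transgenic line is not named in the labels, and the study's text says that line #1, the higher expressing one, was taken further. The labels do not say whether gonads of several embryos were pooled, nor do they give a meaning to the replicate numbers across genotypes. The study's methods call the 2 arrays of each group independent but do not say that they came from separate animals. The p-values are set by how much the replicate difference varied among the 3 genotypes, and this variation may be technical.

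Besides controls the design held 41174 different probes. The processed signals were scaled to a common median, raised to at least 5 and put on the log2 scale. The 24945 probes well above background on all 6 arrays were tested, and 17575 of them were matched to 12445 genes by the accession of the probe design. All differences below are replicate 2 minus replicate 1 on this log2 scale, so that 1 is a 2-fold higher signal in replicate 2. With the replicate number as the contrast and genotype as a block, limma left 2 residual degrees of freedom. It draws the variance of each probe towards that of the other probes, and each SE given below comes from this drawn variance. Probes whose p, adjusted by Benjamini-Hochberg, was below 0.05 are referred to as called.

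The labelled tissue and genotypes were checked first. Nanos2 itself stood at 9.42 and 10.78 in Nanos2+/- replicates 1 and 2, and 13.28 and 14.25 in Nanos2-/-_Tg+. Both Nanos2-/- arrays were not well above background for this probe and stood at the floor of 2.32, so that it was not tested. It was higher in replicate 2 by 1.36 in Nanos2+/- and by 0.97 in Nanos2-/-_Tg+. Markers of germ cells (Ddx4) and Sertoli cells (Sox9, Amh) were well above background on every array. Xist, expressed from the inactive X chromosome of female cells, was not well above background on any of the 6 arrays, while the Y-linked genes Ddx3y and Eif2s3y were well above it on all of them.

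An E14.5 male gonad holds several cell types. Germ cells carry out mitosis until about this age and then arrest, silencing the pluripotency genes they inherit from primordial germ cells (PGCs) while male-type genes such as Dnmt3l are switched on. Sertoli cells enclose them in cords, and steroid-producing Leydig cells, vessels and blood lie between the cords. Genes of developmental stage, of each cell type and of technical controls are therefore given separately below. In whole tissue, fewer cells of a type and less RNA per cell cannot be told apart.

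Pou5f1 (Oct4), the POU transcription factor of pluripotent cells and PGCs, had the smallest p of all probes and a difference of nearly one size in all genotypes. Its only tested probe read 10.62 and 12.43 in Nanos2+/- replicates 1 and 2, 10.53 and 12.39 in Nanos2-/-, and 10.78 and 12.61 in Nanos2-/-_Tg+. All 3 replicate 2 arrays lay above all 3 replicate 1 arrays. The differences were 1.81, 1.86 and 1.83, with a mean of 1.83 ± 0.121 (SE, n = 3 pairs, limma adjusted p = 0.01). The adjusted p depended on the processing and ranged from 3.15e-11 to 0.568 over the alternative settings, while the difference ranged from 1.67 to 2.24. Of 16 alternative fits 9 gave an adjusted p below 0.05, counting the fits without either array of a genotype once. The fit with the floor applied before scaling, 1 of the 9, repeated the main values.

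The promoter windows of Pou5f1 and Nanog are shown because both genes belong to the pluripotency genes compared below. They hold the 250 bases before the start site in RefSeq (GRCm38.p6, plus strand, chr17:35505782-35506031 and chr6:122707239-122707488). Capitals mark TTTGCAT or ATGCAAA, the same letters on either strand and part of the octamer that POU factors are known to recognise.
Pou5f1: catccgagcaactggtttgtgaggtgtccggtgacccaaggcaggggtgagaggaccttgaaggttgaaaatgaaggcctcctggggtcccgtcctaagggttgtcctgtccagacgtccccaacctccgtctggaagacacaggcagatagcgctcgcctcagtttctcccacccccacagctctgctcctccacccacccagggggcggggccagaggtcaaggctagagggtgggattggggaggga
Nanog: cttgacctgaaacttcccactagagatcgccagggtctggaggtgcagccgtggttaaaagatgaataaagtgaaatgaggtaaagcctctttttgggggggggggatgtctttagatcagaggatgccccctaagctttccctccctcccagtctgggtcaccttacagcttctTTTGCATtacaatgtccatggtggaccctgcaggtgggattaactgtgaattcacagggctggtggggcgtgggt
The Nanog window held 1 match and that of Pou5f1 none. Of 27025 promoter windows of this length, 4.06% held a match, and of the 9942 of tested genes 3.22%. Among genes at least 1.5-fold higher in replicate 2 in every genotype, 2 of 42 windows (4.76%) held one, and among those at least 1.5-fold lower 0 of 34. A match describes the letters only.

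Over all probes, limma called 48 higher in replicate 2 (0.192%) and 92 lower (0.369%), and 29 and 54 of these differed by at least 2-fold on average. All 140 had the same sign in the 3 genotypes, and adjusted p ran from 0.01 to 0.0491. With Nanos2+/- replicate 1 or replicate 2 left out no probe was called, with 3309 probes at an unadjusted p below 0.05. Since 1 array less leaves its genotype out of the contrast, this is also the comparison within the slide that held Nanos2-/- and Nanos2-/-_Tg+. The calls numbered 911 (373 higher, 538 lower) without either Nanos2-/- array and 1753 (1041 higher, 712 lower) without either Nanos2-/-_Tg+ array. An intensity trend in the prior variance gave 286 higher and 246 lower, so that the excess of lower calls depended on these choices. Scaling to the 75th percentile or quantile normalization left 0 calls, with 4174 and 4170 probes at an unadjusted p below 0.05 against 5186 here.

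The same sign in all genotypes was seen for 9793 probes higher in replicate 2 (39.3%) and 2684 lower (10.8%). This imbalance followed the scaling. The median difference of the tested probes was 0.24 in Nanos2+/-, 0.11 in Nanos2-/- and 0.05 in Nanos2-/-_Tg+, and with the 75th percentile it was 0.01, -0.02 and 0.01. With that scaling 4947 probes were higher and 5291 lower, and with each genotype centred on its median, an alternative chosen after seeing the data, 4974 and 5360. At least 1.5-fold in every genotype, 82 probes were higher (0.329%) and 143 lower (0.573%), and centring turned these into 37 and 252. At least 2-fold in every genotype, 10 were higher and 12 lower, and 8 and 30 after centring.

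Across probes, the difference in Nanos2+/- correlated with that in Nanos2-/- at r = 0.41 (Spearman 0.38) and with that in Nanos2-/-_Tg+ at 0.35 (0.27), and the latter pair correlated at 0.29 (0.31). These 3 values describe 24945 probes on the same array design, which are not independent replicates. The Nanos2+/- pair differed most, with a median absolute difference of 0.324 against 0.191 and 0.174. At least 2-fold, 395 probes were higher and 384 lower in Nanos2+/-, 172 and 181 in Nanos2-/-, and 200 and 273 in Nanos2-/-_Tg+.

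**Figure D1:**
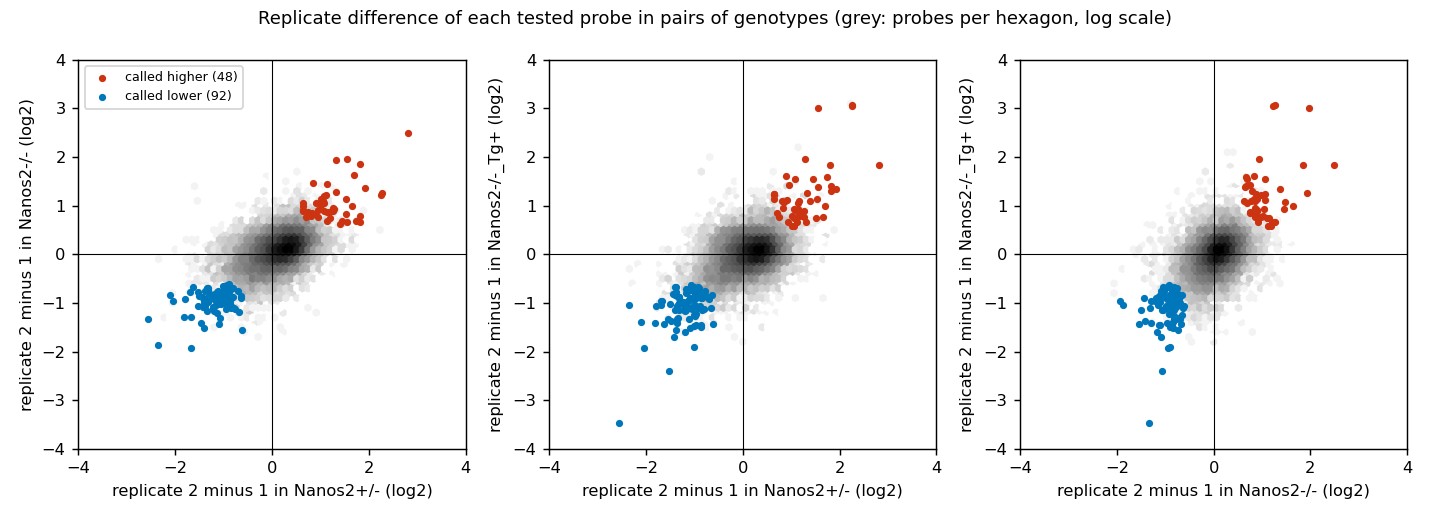
Replicate 2 minus replicate 1 (log2) of each of the 24945 tested probes, with a pair of genotypes on the axes of each panel. Grey hexagons give the number of probes on a log scale, and red and blue points are the 48 probes called higher and the 92 called lower. The cloud is tilted along the diagonal (r = 0.41, 0.35 and 0.29) and the called probes lie in the 2 corners of common sign.

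The genes called higher are given in order of role, with signalling proteins first. Trh, the precursor of thyrotropin-releasing hormone, had the largest difference of the named genes that rose. It read 4.17, 5.73 and 5.06 on the replicate 1 arrays of Nanos2+/-, Nanos2-/- and Nanos2-/-_Tg+, and 6.98, 8.23 and 6.90 on the replicate 2 arrays. The replicates did not overlap, and the mean difference was 2.39 ± 0.187 (SE, n = 3 pairs, limma adjusted p = 0.0186). Th, the tyrosine hydroxylase of catecholamine synthesis, rose by 1.55, 0.66 and 1.38 in the 3 genotypes, and Galr2, a galanin receptor, by 1.54, 0.83 and 1.15. Gpr83, another G protein-coupled receptor, rose by 1.74, 0.68 and 1.60. In all of these the Nanos2-/- pair differed least, except for Trh, in which it was the Nanos2-/-_Tg+ pair. The neuronal list had medians of 0.07, 0.20 and -0.15. Of its 10 genes 5 were tested and Th was the only one called. Elavl4, a neuronal RNA-binding protein, and Tubb3, a neuronal tubulin, had mean differences of 0.19 and -0.02, and Prph, an intermediate filament of peripheral neurons, had differences of -0.84, -0.58 and -1.07 (adjusted p = 0.054).

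Mdfi, an inhibitor of MyoD family factors, had 2 probes, of which the dimmer read 10.02, 10.42 and 8.81 on the replicate 1 arrays and 12.27, 11.64 and 11.86 on the replicate 2 arrays. Its mean difference was 2.17 ± 0.293 (limma adjusted p = 0.0353), and the brighter probe gave 2.20 ± 0.289 (adjusted p = 0.0353). Anp32a, an acidic nuclear phosphoprotein, read 9.31, 8.63 and 8.10 against 10.85, 10.59 and 11.11, a mean difference of 2.18 ± 0.251 (adjusted p = 0.034). Its other probe had a difference of only 0.36 (adjusted p = 0.184). Olig1, a bHLH factor of oligodendrocytes, Lmo1, a LIM-only cofactor, and Epc1, a subunit of a histone acetyltransferase complex, rose by 1.30, 1.14 and 1.05. The Epc1 rise was seen with 1 of its 3 tested probes, the others giving 0.11 and -0.05.

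The remaining named genes that rose were Plpbp (a pyridoxal phosphate-binding protein), Got1l1 (an aspartate aminotransferase-like gene), Rnf25 (a ubiquitin ligase), Akap6 (an anchor of protein kinase A) and Septin10 (a septin). Plpbp rose by 1.32, 1.93 and 1.26, although its other tested probes had mean differences of -0.31 and -0.17. The mean differences of the others were 1.44, 1.11, 1.05 and 1.03. Their limma adjusted p ran from 0.034 to 0.0462. In each of them the 3 replicate 2 arrays lay above the 3 replicate 1 arrays, as they did in all 15 named genes that rose. Over all probes 20.5% had this arrangement, and since the genes were chosen on the same differences nothing is read from the count.

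Of the genes called lower in replicate 2, Tsc22d4, a member of the TSC22 family of leucine zipper proteins, had the largest difference. It read 10.99, 11.30 and 11.23 on the replicate 1 arrays of Nanos2+/-, Nanos2-/- and Nanos2-/-_Tg+, and 8.43, 9.97 and 7.75 on the replicate 2 arrays. The difference was -2.45 ± 0.335 (SE, n = 3 pairs, limma adjusted p = 0.0353). The replicates did not overlap with this probe, but the other Tsc22d4 probe differed by 0.25 (adjusted p = 0.327). Mospd3, a membrane protein with a sperm protein domain, lies near Tsc22d4 on chromosome 5 with 4 tested genes between them. Its differences were -1.53, -1.07 and -2.40 with 1 probe and -1.01, -0.91 and -1.90 with the other, and both fell (adjusted p = 0.0353 and 0.0456).

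Prdm16, a zinc finger regulator of transcription known from brown fat, read 9.63, 8.29 and 8.87 against 7.27, 6.42 and 7.82, a difference of -1.76 ± 0.228 (limma adjusted p = 0.0353). Clgn, a chaperone of the endoplasmic reticulum of male germ cells, read 10.20, 8.30 and 8.60 against 8.15, 7.35 and 6.67, a difference of -1.64 ± 0.213 (adjusted p = 0.0353). The replicates of neither gene overlapped. Mcemp1, a mast cell membrane protein, had the most even fall of the 15 named genes that fell, with differences of -1.47, -1.41 and -1.37, and the smallest adjusted p of the probes that fell (0.0248). Neil2, a DNA glycosylase of base excision repair, fell with differences of -1.68, -1.93 and -0.96, and Farsa, a subunit of phenylalanyl-tRNA synthetase, with differences of -0.96, -1.13 and -1.46.

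The mean differences of N4bp2l2, Zg16 (a lectin of zymogen granules), Gria3 (an AMPA receptor subunit) and Bri3bp were -1.40, -1.22, -1.20 and -1.17. Lrrc29, Masp2 (a protease of the lectin complement pathway), Heatr5a and Serpinf2 (an inhibitor of plasmin) fell with mean differences of -1.13, -1.12, -1.12 and -1.11. Of the 15 named genes that fell, 13 had replicate 2 arrays that all lay below the replicate 1 arrays, against 4.17% of all probes. These genes too were chosen on the same differences, so nothing is read from this count. Gria3 and Serpinf2 overlapped between genotypes. For Bri3bp the 4 other tested probes had positive differences of 0.20 to 0.27, none of them called. The other tested Heatr5a probe was higher in every genotype (0.43, 0.27 and 0.41), and the other Gria3 probe had a mean difference of 0.03.

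**Figure D2:**
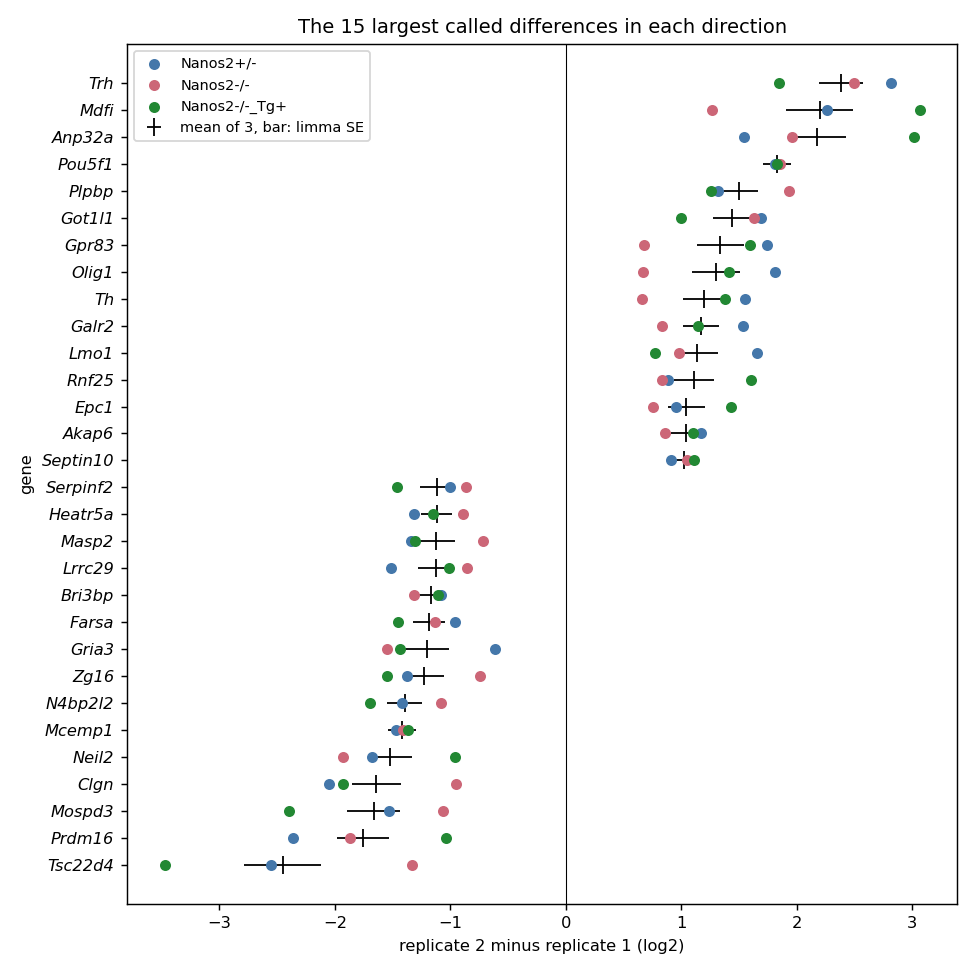
Replicate 2 minus replicate 1 (log2) in each genotype (coloured points) for the 15 genes with the largest called rise and the 15 with the largest called fall. Vertical ticks are the means of the 3 genotypes and bars the limma SE. All points of a gene lie on 1 side of 0, and those of Pou5f1 (1.81 to 1.86) and Mcemp1 (-1.47 to -1.37) lie closest together.

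Different probes of a gene often did not share the difference. Named rises and falls included 11 genes with further tested probes, and 5 of these 16 probes had the same sign in all 3 genotypes as the named probe. Of the 57 genes called in all, 25 had further tested probes, and in 5 of the 25 (Mdfi, Dct, Psap, Mospd3 and Cplx2) another probe was called the same way. Dct, a melanin synthesis enzyme, rose by 1.06, 1.05 and 0.93 with 1 probe and by 1.02, 1.01 and 0.79 with the other. Psap, the precursor of lysosomal saposins, rose by 0.65, 1.06 and 1.24, and by 0.64, 0.99 and 1.23. Cplx2, a complexin of synaptic vesicles, fell with a mean difference of -0.91 on both called probes, while its other tested probes gave 0.07 and 0.02. Across the 4161 genes with at least 2 tested probes, the mean difference of the brightest correlated with that of the next at r = 0.54.

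Named genes were unevenly shared between the directions. Of the 48 probes that rose 33 (68.8%) had a gene name, and of the 92 that fell 29 (31.5%). Among all 24945 tested probes 17575 had one, so that it was the probes that fell that departed from the rest. Probes designed on AK cDNA clones made up 43 of the 92 that fell and 4 of the 48 that rose. This class made up 3487 of the 24945 tested probes. Of these 1.23% fell, against 0.178% of the 17952 designed on RefSeq mRNAs and 0.369% of all tested probes. AK probes were also dimmer, with a median signal of 7.38 against 9.77, and their median differences in the 3 genotypes were 0.11, 0.005 and 0.003 against 0.26, 0.13 and 0.06. The part of signal level in this was not tested.

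The genes at least 1.5-fold apart in every genotype, 51 higher and 45 lower, were spread over the chromosomes. Chromosome 8, with 5.26% of the tested genes, held 7 of the 45 lower and 2 of the 51 higher genes. Chromosome 9, with 5.63%, held 5 higher genes and no lower one. Of these 96 genes 6.25% had another of them within 5 tested genes, against 7.46% of the other genes. The 3 pairs were Mospd3 with Tsc22d4 (both lower), Plpbp with Got1l1 (both higher) and Heatr5a (lower) with Akap6 (higher).

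For developmental stage, a list of genes taken to fall in the fetal testis with age was set beside a list taken to rise. Both lists were chosen with earlier results of these data known, so their distance from all genes is not independent evidence. In the falling list 9 of 11 genes were tested, 5 had a positive difference in all genotypes and none a negative one, and only Pou5f1 was called. The falling list's median difference was 1.29 in Nanos2+/-, 0.32 in Nanos2-/- and 0.36 in Nanos2-/-_Tg+, against 0.28, 0.12 and 0.05 for all 12445 tested genes. In Nanos2+/- this median was the value of Stra8, a meiotic gene that the study found up-regulated in the null gonads. Pou5f1, Nanog, Sox2 and Lefty1 lay above it (1.41 to 2.93). Lefty2, Fgf9, Tdgf1 and Cyp26b1 lay below it (0.00, 0.06, 0.09 and 0.31). In the rising list 10 of 15 genes were tested, none was called, and the medians were -0.19, 0.05 and -0.24. Nanos2 also belongs to the rising list but was not tested. It was higher in replicate 2 by 1.36 in Nanos2+/- and by 0.97 in Nanos2-/-_Tg+, opposite in sign to the list medians there. Over all tested genes 42.7% had a positive and 6.89% a negative difference in all genotypes. With each genotype centred on its median, the falling list stood at 1.05, 0.21 and 0.31 and the rising list at -0.43, -0.06 and -0.29.

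The pluripotency genes differed in how evenly the genotypes shared the difference. Nanog, a homeobox factor of pluripotent cells, read 7.43 and 9.05 in Nanos2+/- replicates 1 and 2, 8.74 and 9.25 in Nanos2-/-, and 7.94 and 8.83 in Nanos2-/-_Tg+. Lefty1, a secreted inhibitor of Nodal signalling, read 7.17 and 10.10, 9.72 and 10.25, and 9.26 and 10.59. Both were higher in replicate 2 of every genotype and neither was called (limma adjusted p = 0.0807 and 0.0988). Tdgf1 (Cripto), a Nodal coreceptor, and Lefty2, both of the falling list, did not share this, with differences of 0.09, -0.89 and 0.36, and of 0.00, -0.11 and 0.37. The Tdgf1 probe was dim, at 4.21 to 5.10 on the 6 arrays, within the dimmest decile of tested probes. Sox2, a partner of Oct4, had differences of 1.41, 0.32 and 0.17, and Utf1, a chromatin factor of pluripotent cells, of 0.67, 0.26 and 0.24. Gdf3, Esrrb, Trap1a and Zfp42, chosen like Nanog and Utf1 after their values were seen, were likewise higher in every replicate 2, with mean differences of 1.16, 0.97, 0.81 and 0.79 and adjusted p from 0.0718 to 0.111. Of these genes only Pou5f1 was called.

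Unlike Pou5f1, none of the following genes of PGCs and male-type development was called. Dppa3 (Stella), a maternal factor of PGCs, had differences of 1.08, 0.39 and 0.60, and Dppa5a (Esg1), another PGC marker, of 1.29, 0.03 and -0.14. Dnmt3l, a cofactor of DNA methylation in male germ cells, read 13.40 and 11.12 in Nanos2+/-, 10.09 and 9.99 in Nanos2-/-, and 10.66 and 10.06 in Nanos2-/-_Tg+. It was lower in replicate 2 of every genotype, with differences of -2.29, -0.10 and -0.60 (adjusted p = 0.189). Piwil1, a PIWI protein of germ cells, had differences of -1.37, 0.01 and 0.49, and Tdrd1, a Tudor protein of the piRNA pathway, of -0.41, 0.27 and -0.25. Dnmt3a, a DNA methyltransferase, and Piwil2 and Mov10l1 of the piRNA pathway, from the rising list, had mean differences of 0.03, -0.03 and -0.002.

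The meiotic genes went different ways in the genotypes. Stra8, the retinoic acid-induced gate to meiosis, read 10.19 and 11.48 in Nanos2+/-, 12.46 and 13.44 in Nanos2-/-, and 14.48 and 13.04 in Nanos2-/-_Tg+. Its differences were thus 1.29, 0.98 and -1.44 (adjusted p = 0.706). Taf7l, a germ cell paralogue of a general transcription factor, had differences of 0.68, 0.22 and -0.78, and Sycp1, a synaptonemal complex protein, of 0.66, 0.23 and -0.18. For these genes the Nanos2-/-_Tg+ pair ran against the others.

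Whether the difference in Nanos2+/- was different from that in the other genotypes was tested with an interaction term. limma called 0 of 24945 probes (0%), with 2052 probes at an unadjusted p below 0.05 and 1 residual degree of freedom. The difference in Nanos2+/- minus the mean of the others was 2.00 for Lefty1, 1.34 for Dppa5a, 1.17 for Sox2 and -1.94 for Dnmt3l, each with an adjusted p of 0.563. The corresponding value for Pou5f1 was -0.03 (adjusted p = 0.948).

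**Figure D3:**
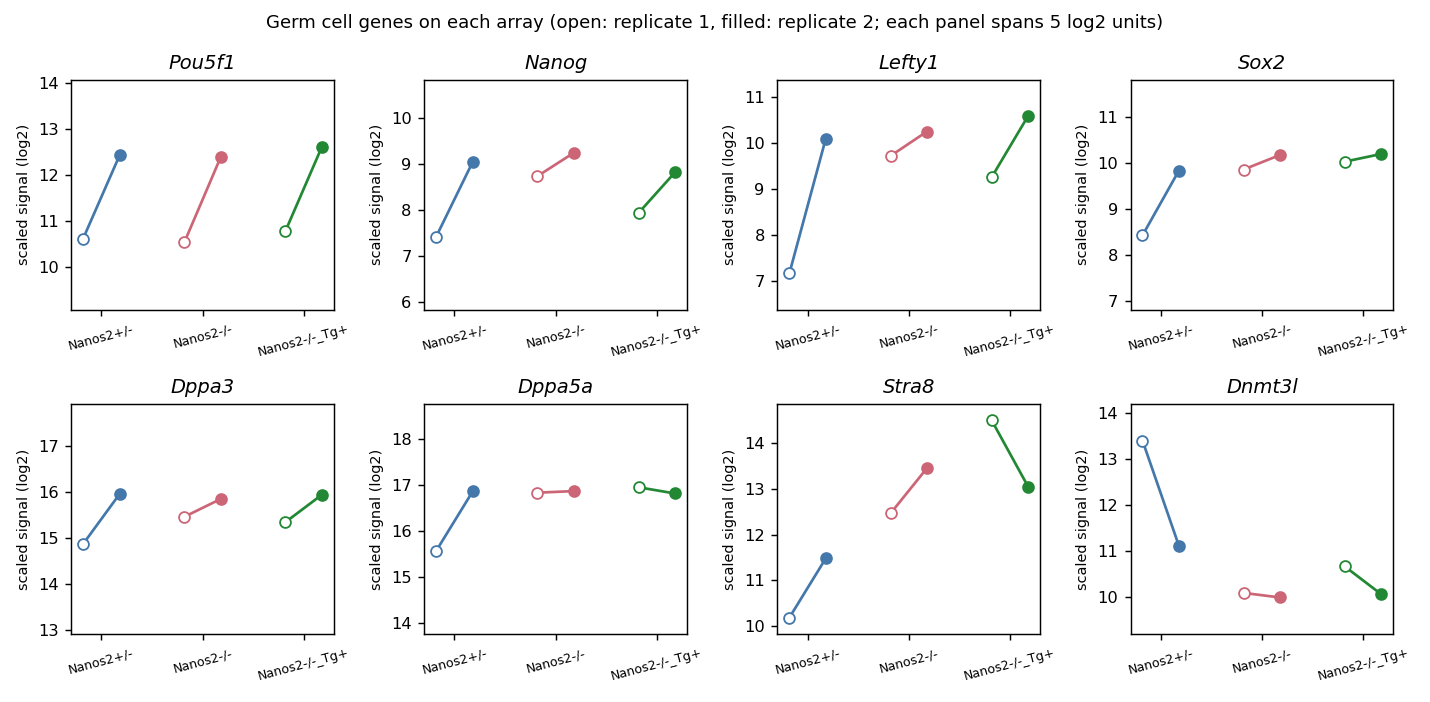
Scaled signal (log2) of 8 germ cell genes on each array, with replicate 1 as an open and replicate 2 as a filled point joined within a genotype. Pou5f1 rises by 1.81 to 1.86 in every genotype, Nanog and Lefty1 rise by most in Nanos2+/-, and Dnmt3l and Stra8 differ in size or direction between genotypes.

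For tissue content, lists of the cell types of the gonad and its surroundings were compared. The germ cell list (20 of 23 genes tested, Pou5f1 called) had medians of 0.67, 0.28 and -0.14 in Nanos2+/-, Nanos2-/- and Nanos2-/-_Tg+. The log2 of its summed signal was 17.50 and 18.16 in Nanos2+/- replicates 1 and 2, 17.91 and 18.13 in Nanos2-/-, and 18.18 and 18.13 in Nanos2-/-_Tg+. Ddx4, the germ cell RNA helicase, differed by 0.11, 0.25 and 0.13, and Dazl, an RNA-binding protein of germ cells, by 0.94, 0.32 and 0.11. Kit, a receptor tyrosine kinase, and Mael, of the piRNA pathway, chosen after their values were seen, had mean differences of 0.17 and -0.16.

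The Sertoli cell list (19 of 21 genes tested, none called) had medians of 0.26, -0.03 and 0.07, against 0.28, 0.12 and 0.05 for all tested genes. It thus lay below all genes in Nanos2+/- and Nanos2-/-, and above them in Nanos2-/-_Tg+. Within it, Sox9 and Amh, which define male supporting cells, had mean differences of 0.12 and 0.20, and Dhh and Fgf9, signals of these cells, of 0.30 and -0.01. Hsd17b1 and Hsd17b3, which reduce steroids at carbon 17, and Fshr, the receptor for follicle-stimulating hormone, were chosen after their values were seen. They were lower in replicate 2 of every genotype, with mean differences of -0.84, -0.50 and -0.55 (adjusted p = 0.0561, 0.108 and 0.12). The fetal Leydig cell list (11 of 12 tested, none called) had medians of 0.19, -0.03 and -0.21. Star and Cyp11a1, which bring cholesterol into steroid synthesis, and Cyp17a1 and Hsd3b1, which act after them, had mean differences of 0.08, 0.05, -0.12 and -0.06.

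Among 10 tested genes of the erythroid list none was called, and embryonic and adult globins did not move together. Hbb-y, an embryonic beta globin, read 13.01 and 14.69 in Nanos2+/-, 13.46 and 13.84 in Nanos2-/-, and 12.89 and 14.57 in Nanos2-/-_Tg+. Its differences were 1.68, 0.38 and 1.68 (adjusted p = 0.0762), those of Hbb-bh1 1.46, -0.21 and 1.70, and those of Hba-x 1.05, -0.02 and 1.54. Hba-a1, the adult alpha globin, differed by 0.00, -0.19 and -0.09. Embryonic globins are made by primitive red cells, which decline in number through these days of gestation, so that this list touches both stage and blood content.

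Besides Pou5f1, the lists held 2 called genes. In the interferon list (7 of 12 tested) Irf7 and Oas1a, mediators of the response, had mean differences of 0.56 and 0.10, and Isg15, an interferon-induced ubiquitin-like protein, rose by 1.12, 1.21 and 0.67 (adjusted p = 0.0395), while the list medians were 0.26, 0.77 and -0.20. In the neuronal list Th was called, as above. The 14 tested genes of mesonephros and Wolffian duct had medians of 0.11, -0.01 and 0.15. The duct markers Pax2 and Pax8 were not well above background on all arrays and not tested, while Epcam and Cdh1, adhesion proteins of epithelia and germ cells, had mean differences of 0.89 and 0.74 (adjusted p = 0.094 and 0.0976), chosen after their values were seen. Lhx1, Emx2 and Gata3, transcription factors of these ducts, had mean differences of 0.79, 0.18 and 0.01. Endothelial genes (14 tested) had medians of 0.10, -0.05 and -0.03, macrophage genes (13 tested) of 0.24, 0.12 and 0.02, and interstitial progenitor genes (13 tested) of 0.23, 0.02 and 0.21. Coelomic epithelium (10 tested) had medians of 0.30, -0.02 and 0.08, smooth muscle (10 tested) of 0.19, -0.06 and -0.04, ovarian somatic genes (5 tested) of 0.24, 0.06 and -0.11, and adrenal cortex (3 tested) of 0.35, -0.002 and -0.08. Of the plasma protein list 3 of 10 genes were tested. Trf and Ahsg, carrier proteins of plasma, had mean differences of 0.49 and -0.35, and Afp, the fetal serum protein, had differences of -0.83, -0.41 and -0.80 (adjusted p = 0.0807).

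The first members of the lists of surrounding cells were not called. Nr2f2, Pdgfra and Ptch1, of interstitial progenitors, had mean differences of 0.18, 0.21 and 0.24. Pecam1, Cdh5, Kdr and Tek, of endothelium, had 0.32, 0.13, -0.13 and -0.11. Csf1r, Cx3cr1, Mrc1 and C1qa, of macrophages, had 0.26, 0.07, -0.05 and 0.19. These lay on both sides of 0 in endothelium and macrophages. Upk3b, Msln, Krt7 and Krt19, of coelomic epithelium, had mean differences of 0.36, -0.39, 0.15 and -0.21. The contractile genes Acta2, Tagln, Myh11 and Cnn1 had 0.13, 0.08, -0.16 and 0.02. Wnt4, Fst, Rspo1 and Bmp2, of ovarian somatic cells, had 0.08, -0.24, 0.26 and 0.15. None of these passed the test. Mc2r, Mrap and Akr1b7, of adrenal cortex, had mean differences of 0.18, 0.08 and 0.07. Ddx3y, Eif2s3y, Kdm5d and Uty, of the Y chromosome, had 0.01, 0.25, 0.25 and 0.15.

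Lists of general cell functions had these values. The oxidative phosphorylation list (26 tested) had medians of 0.53, 0.19 and 0.10, and the ribosomal protein list (30 tested) of 0.42, 0.08 and 0.15, with no gene called in either. Of the 30 ribosomal protein genes 21 were higher and none lower in all genotypes, against 42.7% and 6.89% of all genes. The brightest decile of probes had medians of 0.39, 0.14 and 0.10, and with each genotype centred the ribosomal protein list stood at 0.18, -0.03 and 0.09. Mitosis genes (32 tested) had medians of 0.26, 0.09 and 0.19, and DNA replication genes (27 tested) of 0.33, 0.13 and 0.09. Heat shock genes (12 tested) had medians of 0.37, 0.10 and 0.13, hypoxia genes (17 tested) of 0.24, 0.19 and 0.10, and immediate early genes (18 tested) of 0.17, -0.07 and 0.06. Centring also turned the Nanos2-/- medians of mitosis and heat shock genes to -0.02 and -0.01. Extracellular matrix genes (20 tested) had medians of 0.10, 0.02 and 0.09, and cholesterol synthesis genes (15 tested) of 0.26, 0.04 and 0.02.

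Of the first members of these lists none was called. Cdk1, Ccnb1, Ccnb2 and Ccna2, the cyclin-dependent kinase and cyclins of mitosis, had mean differences of 0.30, 0.36, 0.32 and 0.11. Mcm2, Mcm3, Mcm4 and Mcm5, of the replicative helicase, had 0.19, 0.18, 0.18 and 0.16. Rpl3, Rpl4, Rpl5 and Rpl7, of the large ribosomal subunit, had 0.26, 0.56, 0.17 and 0.27. None of these passed the test. Ndufa1, Ndufa2, Ndufa4 and Ndufa9, of the respiratory chain, had mean differences of 0.20, 0.28, 0.25 and 0.47. Hspa1a, Hspa1b, Hsph1 and Hsp90aa1, heat shock chaperones, had 0.02, 0.04, 0.29 and 0.18. Vegfa, Slc2a1, Pgk1 and Ldha, which respond to low oxygen, had -0.21, 0.29, 0.35 and 0.28. These were not called either. The transcription factors Fos, Fosb, Jun and Junb had mean differences of -0.13, -0.07, 0.08 and 0.34. Col1a1, Col1a2, Col3a1 and Col5a1, fibrillar collagen chains, had 0.04, -0.04, 0.16 and 0.07. Hmgcs1 and Sqle, of cholesterol synthesis, had -0.14 and 0.04. None of these was called.

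A pair of genes differed far more in 1 or 2 genotypes than in the rest, and were picked after their values were seen. Egln3, an oxygen-sensing prolyl hydroxylase, read 7.90 and 14.48 in Nanos2+/-, 7.96 and 8.55 in Nanos2-/-, and 8.01 and 8.59 in Nanos2-/-_Tg+. It stood 6.58 higher in replicate 2 of Nanos2+/- and 0.59 and 0.58 higher in the others (interaction 5.99, adjusted p = 0.0883). Prim2, a DNA primase subunit, read 10.21 and 4.41, 10.12 and 5.02, and 9.94 and 11.24. It was thus lower in replicate 2 of Nanos2+/- and Nanos2-/- and higher in that of Nanos2-/-_Tg+ (adjusted p = 0.191 for the common difference).

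**Figure D4:**
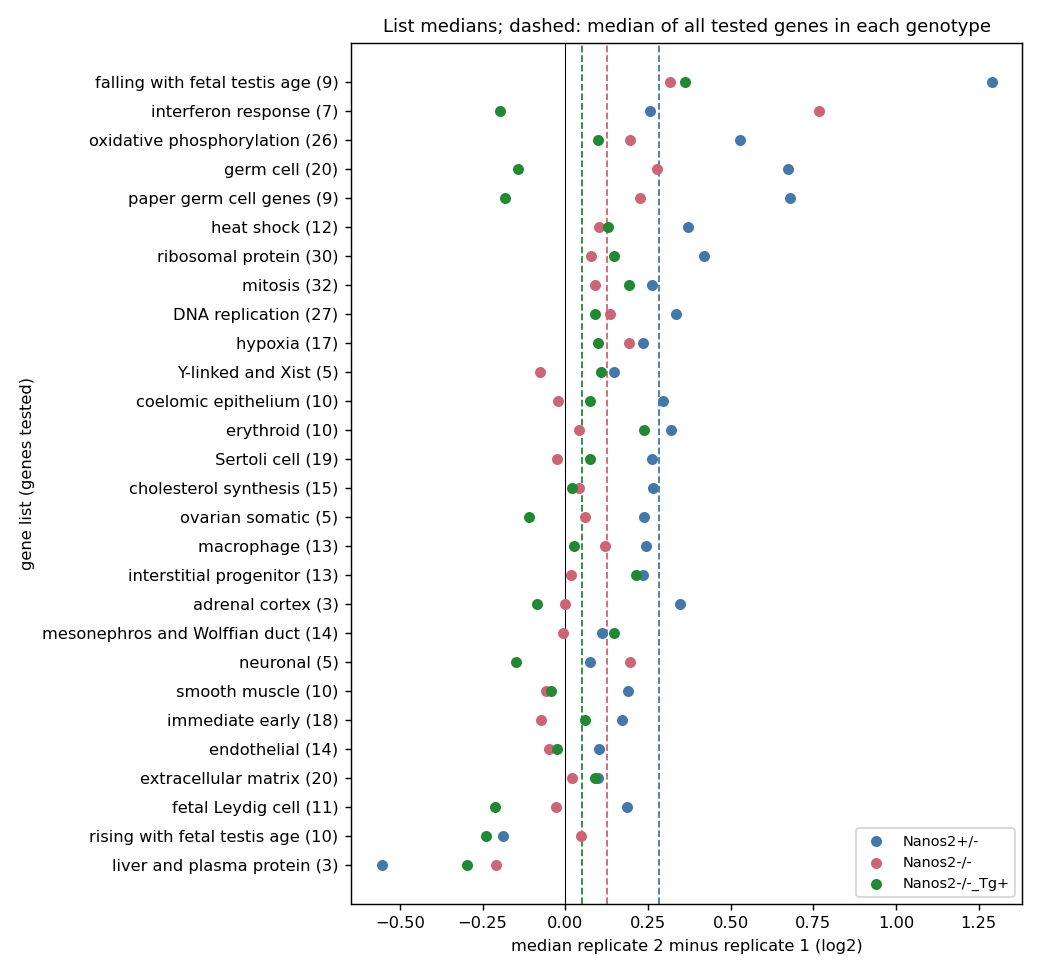
Median replicate 2 minus replicate 1 (log2) of each gene list in each genotype (points), with the number of genes tested in brackets and the medians of all 12445 tested genes as dashed lines (0.28, 0.12 and 0.05). The falling list (1.29) lies farthest to the right in Nanos2+/-, but the lists were chosen with earlier results of these data known. Most lists of somatic cells lie to the left of the dashed lines in Nanos2+/- and Nanos2-/-, and on both sides in Nanos2-/-_Tg+.

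For technique, the arrays and their controls were compared. Nanos2+/- had slide 1 to itself, and slide 2 carried both other genotypes, so that no replicate pair was split between slides. Replicate 1 lay directly before replicate 2 in every genotype, so that place on the slide and replicate number cannot be told apart. The share of probes well above background was 65.7, 66.7 and 64.8% in the replicate 1 arrays of Nanos2+/-, Nanos2-/- and Nanos2-/-_Tg+, and 64.3, 64.2 and 64.1% in the replicate 2 arrays, lower in all 3. The scanner software's median CV of repeated probes was 5.11, 4.85 and 4.25% against 4.55, 4.45 and 4.08%, also lower in all 3. The lowest scaled signal that was well above background was 12.4, 11.1 and 13.4 against 14.2, 13.5 and 14.3, higher in all 3. The part of these measures in the differences was not tested. Outlier spots numbered 82, 79 and 54 against 57, 71 and 57, and no spot was saturated. The median difference within 95 blocks of rows and columns varied with an SD of 0.0361, 0.0252 and 0.0286, and removing the block medians left 139 calls.

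Spike-in controls, which are RNAs added in set amounts to each labelling, moved apart from the probes in Nanos2+/-. The 7 of 10 that were well above background on every array stood 0.97 to 1.44 higher in Nanos2+/- replicate 2 after scaling, with a median of 1.05. Before scaling their median was 0.69. In Nanos2-/- they differed by -0.03 to 0.32 and in Nanos2-/-_Tg+ by 0.03 to 0.28. The median difference of the tested probes in Nanos2+/- also rose with signal, from 0.06 in the dimmest decile to 0.39 in the brightest, against -0.02 to 0.14 in Nanos2-/- and -0.001 to 0.10 in Nanos2-/-_Tg+. Of the 92 probes called lower 64 were in the 3 dimmest deciles, and of the 48 called higher 24, where the deciles hold equal numbers of tested probes. The part of these values in the differences was not tested.

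**Figure D5:**
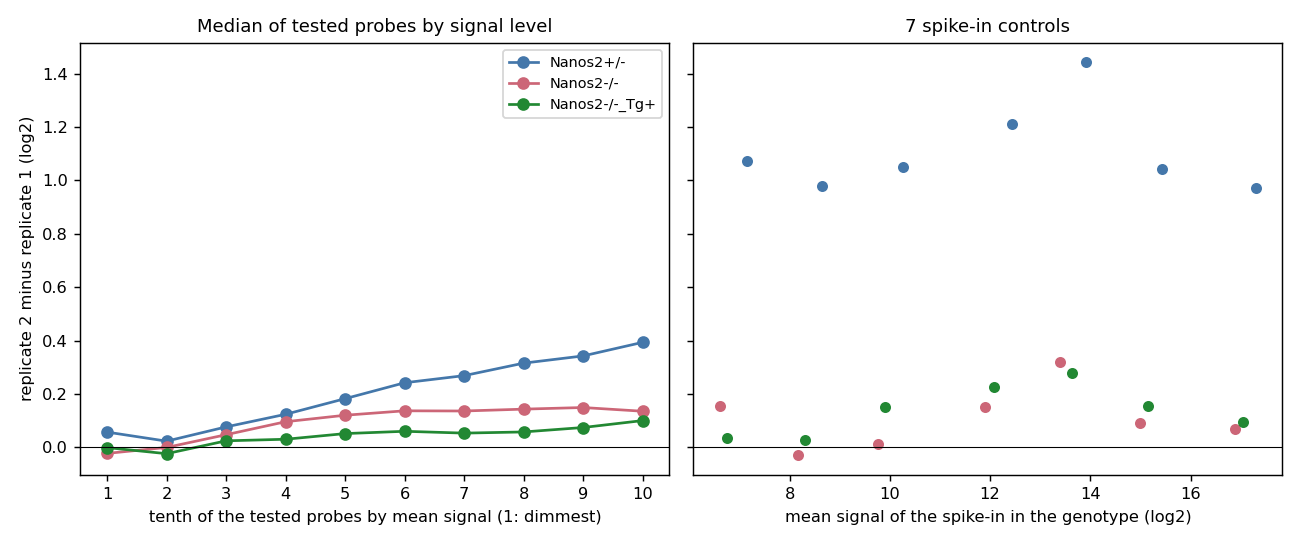
Left, median replicate 2 minus replicate 1 (log2) of tested probes in deciles of mean signal, by genotype. Right, the same difference of each of 7 spike-in controls against its mean signal (log2). In Nanos2+/- the medians climb from 0.06 to 0.39 and the spike-ins lie between 0.97 and 1.44, above those of the other genotypes.

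The replicate difference also touched the comparisons of genotypes. Counting probes that passed the adjusted p and differed by 2-fold or more, limma without the replicate number called 1 probe between Nanos2-/- and Nanos2+/- (0.00401%), 5 between Nanos2-/-_Tg+ and Nanos2+/- (0.02%) and 1 between Nanos2-/-_Tg+ and Nanos2-/- (0.00401%). A block for the replicate number turned these into 14 (0.0561%), 266 (1.07%) and 1 (0.00401%). Single arrays left out gave 1 to 30, 3 to 137 and 0 to 18, the highest being without Nanos2+/- replicate 2, without either Nanos2-/- array and without Nanos2-/- replicate 1. Both comparisons with Nanos2+/- share its arrays, and the slide and this genotype cannot be told apart.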

How the data were processed

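Spot values came from the deposited scanner files, in which the authors' Agilent Feature Extraction software (version 9.5 in the submitters' processing notes) gives each spot's processed intensity after background subtraction and detrending. The value table that the authors deposited holds the same intensity to within 0.497%. Controls and outlier spots were left out, each array was scaled to a common median, values were raised to 5, and log2 values were averaged per probe. From these log2 values of deposited intensity, differences were tested with limma 3.58.1 (lmFit and eBayes, R 4.3.3), genotype as block and 5.92 prior degrees of freedom. Data were also simulated with 200 changed probes among 24945, all tested in this contrast. limma recovered 98% of 100 changes of 1 on the log2 scale and 100% of 100 changes of 2, with 23 false calls. The simulated noise was independent and normal, with the fitted spread and without shifts of whole arrays or trends with signal. The real arrays had both, so these rates do not give the recovery in the real data. The number of arrays, 2 per genotype, limits the precision.

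Groups and replicate numbers came from the sample titles. The numbers were taken as given to align the arrays across genotypes. The correlations of 0.29 to 0.41 between genotypes come from the same differences that were tested. They cannot tell whether the numbers share a meaning. Gene names came from RefSeq (23366 of 41174 probes matched). Named were the 15 genes with the largest called difference in each direction, of each of 28 gene lists the first 4 measured (some are not reported here) and every called member, the germ cell genes of the paper, Nanos2, and genes said to be chosen after their values were seen. For each gene a list used its brightest probe. Members and lists were chosen with earlier results of these data known. Python 3.11.15 with matplotlib 3.10.9 drew the figures, from tables joined in pandas 2.3.3. The alternatives were other scalings, floors, filters and background corrections, the value table, an intensity trend, single arrays left out, the methods' t-test, and the block.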

Additional observations from a re-analysis of the deposited data

How the results depend on the processing

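The direction of all 30 named genes was kept in 480 of 480 values over 16 alternative fits, and the call in 234. These genes were chosen for the same sign in all 3 genotypes, and the fits reuse the same arrays. The kept direction was thus nearly fixed by the choice, and nothing is read from it. The fit with the floor applied before scaling, 1 of the 16, repeated the main values. Called probes (140) numbered 0 with normexp background correction (on median signals, 217 at an unadjusted p below 0.05), the 75th percentile, quantile normalization, the filter of both arrays of at least 1 genotype (4927 unadjusted), no filter (5488 unadjusted), each genotype centred (4159 unadjusted), within the slide of Nanos2-/- and Nanos2-/-_Tg+ (3309 unadjusted) and the methods' t-test after Benjamini-Hochberg adjustment (3278 unadjusted, 97 of them with the 2-fold limit). They numbered 89 with a floor of 20, 532 with an intensity trend, 2 without the genotype block, and 0 to 1753 with single arrays left out. Left out, an array also takes its genotype out of the contrast and leaves 1 residual degree of freedom. For the Hetero interaction, 0 probes became 17301 with normexp, of which 16545 were higher, 3 with outlier spots kept and 1 with the intensity trend. With normexp the median difference of the tested probes was 1.15 in Nanos2+/-, 0.09 in Nanos2-/- and 0.02 in Nanos2-/-_Tg+. In the interaction fit no array could be left out because no residual degrees of freedom remain. The cause of these shifts was not tested.

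The number of probes with a common sign in all 3 genotypes was 12477 of 24945 in the main setting. On these probes the alternatives gave from 10238 (75th percentile) to 12500 (value table). The filter of both arrays of at least 1 genotype gave 13075 of 26690, and no filter 14147 of 41152. With a genotype left out the number was 15924 to 17875. That count needs a common sign in only 2 genotypes and is not comparable with 12477. Of 504 list medians over 18 alternatives, repeated fits included, 72 moved by more than the SD between genotypes and 55 changed sign.

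With the replicate number as a block, calls between Nanos2-/- and Nanos2+/- rose from 1 to 14 and between Nanos2-/-_Tg+ and Nanos2+/- from 5 to 266, and stayed at 1 between Nanos2-/-_Tg+ and Nanos2-/-. In that order the calls were 0, 2 and 0 with the 75th percentile, 1, 1 and 0 with quantile normalization, 0, 0 and 0 with normexp, 1, 3 and 1 with a floor of 20, 18, 28 and 5 with the filter of both arrays of at least 1 genotype, 2, 4 and 0 without a filter, 2, 4 and 1 with block medians removed, and 1, 16 and 1 with the intensity trend. Leaving out single arrays gave 1 to 30, 3 to 137 and 0 to 18. The probes at an unadjusted p below 0.05 with the 2-fold limit numbered 258, 369 and 39 with the 75th percentile, and 399, 403 and 6 with normexp. They numbered 45 between Nanos2-/-_Tg+ and Nanos2-/- with quantile normalization, and 146 without a filter. The number of arrays, 2 per genotype, limits all of these counts.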
